A study of Saccharomyces cerevisiae with 19 samples.

Results

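The 59 genes described here are ribosome biogenesis factors of Saccharomyces cerevisiae, the proteins that build ribosomes without being part of the finished particle. They were chosen by systematic gene name from the names and known roles of nucleolar factors for both ribosomal subunits, and they are 59 of the 5758 genes with reads in any library. They comprise 3 box C/D and 3 box H/ACA snoRNP proteins, 6 UtpA and 5 UtpB subunits, 11 other small-subunit and 15 other large-subunit factors, 8 DEAD-box helicases and 8 GTPases, release and export factors. Complexes are counted here by their subunits among the 59, not by their full membership. Each of the 59 was found in all 19 libraries, with at least 29 reads in every one, and all 59 passed the filters on low counts. They lie on 14 of the 16 nuclear chromosomes and none overlaps another gene of the RefSeq table.

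Ribosome-protected mRNA fragments (ribosome profiling) and mRNA were sequenced from wild-type yeast of the BY4741 background, with library preparations that differ in their linkers and reverse transcription primers. Per the labels, all cultures grew in YPD medium from an OD600 of 0.02 to 0.4, received cycloheximide, an inhibitor of translation elongation, for 1 min, and were lysed in 100 μg/ml cycloheximide. Footprints of 28 to 32 nt were purified from RNase I-treated monosomes. The footprint groups were DualLigation with 3 libraries, 4+3N low and Nonrandom low with 2 each, and 4+3N, 4N and Nonrandom with 2 each, and the mRNA groups were 4+3N, 4N and Nonrandom with 2 each. Every library shares strain, genotype, medium and drug, and the labels describe 1 protocol for all of them, so the design holds no treated or mutant cells. The labels do not say what low stands for, and they do not state that replicates are separate cultures, so p-values measure only the spread between these libraries.

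Totals ran from 6735945 to 13478946 reads in the 9 standard footprint libraries, from 827353 to 2667016 in the 4 low ones and from 1838817 to 3497303 in the 6 mRNA libraries. The DualLigation libraries stood apart in their spread, with a biological coefficient of variation of 35.5% among replicates against 5.10% to 8.19% in the other 8 groups.

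Ribosome assembly starts in the nucleolus, where RNA polymerase I makes the long precursor of the ribosomal RNAs. The small-subunit processome, which includes the UtpA and UtpB complexes and the U3 snoRNP, folds and cleaves the first part of it, and box C/D and box H/ACA snoRNPs guide methylation and pseudouridylation. Large-subunit factors, DEAD-box helicases, GTPases and the AAA-type ATPase Rea1 then remodel the pre-60S particle until export adaptors such as Nmd3 carry it to the cytoplasm. In growing yeast these genes form a well-known co-regulated set.

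Most of these factors were above the median gene in both assays. Levels below are reads per length of the gene, scaled to the same sum in every library (TPM), the scale on which genes can be compared with each other. In the 6 standard footprint libraries of the 4+3N, 4N and Nonrandom preparations, 57 of the 59 lay above the median gene, which stood at 27.8 TPM, and in the 6 mRNA libraries 55 lay above the median gene at 44.2 TPM. Footprint levels ran from 25.3 TPM for REA1 (YLR106C, also called MDN1), the AAA-type ATPase that strips factors off the pre-60S particle, through a median of 83.9 to 906 TPM for NOP1 (YDL014W), the fibrillarin methyltransferase. The mRNA levels ran from 16.2 TPM for REA1 through a median of 82.7 to 584 TPM for NOP1. REA1 is also the longest gene measured, at 14733 bases.

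**Figure D1:**
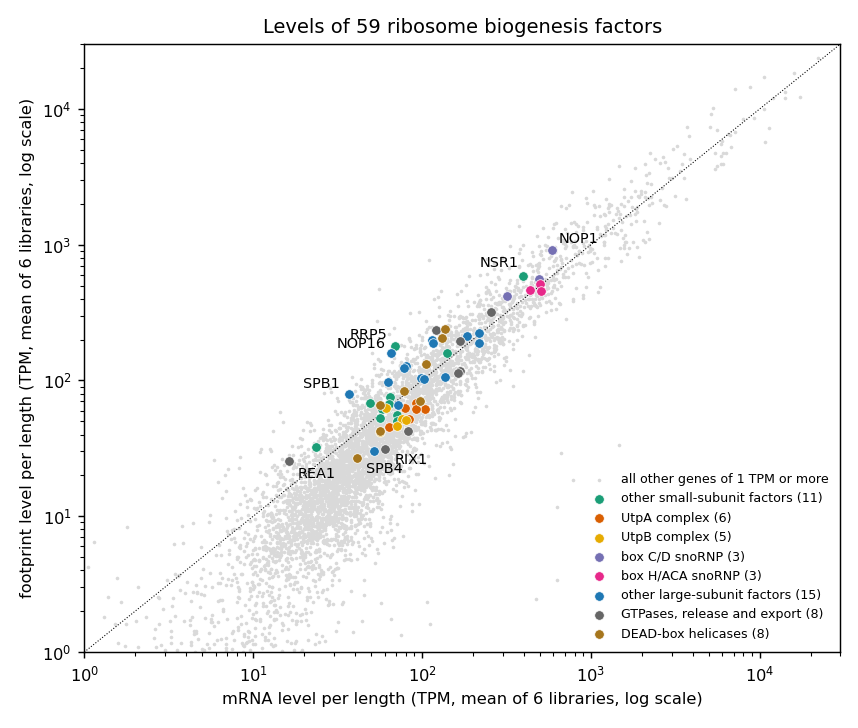
Footprint level against mRNA level, both in TPM on log axes, as the mean of 6 libraries per assay. Coloured points are the 59 factors by role, grey points are the other genes of at least 1 TPM in both assays, and the dotted line marks equal values; 57 factors lie above the median footprint level of 27.8 TPM, and NOP1 is the highest of them at 906 TPM.

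The snoRNP proteins and NSR1 headed the order. NOP1 had 906 ± 85.1 TPM in footprints and 584 ± 32.0 TPM in mRNA (SD, n = 6 each). NSR1 (YGR159C), the yeast nucleolin, had 584 ± 10.9 TPM in footprints and 398 ± 22.8 TPM in mRNA (SD, n = 6 each). NOP56 (YLR197W), a core box C/D protein, had 554 ± 34.9 TPM in footprints and 494 ± 19.9 TPM in mRNA (SD, n = 6 each). These genes and NHP2, GAR1, CBF5, NOP58 and TIF6 made up the upper end, and 8 factors were in the highest decile of all genes in footprints and 7 in mRNA. At the lower end stood REA1, SPB4, a DEAD-box helicase of the large subunit with 26.8 ± 3.12 TPM in footprints and 41.4 ± 5.09 TPM in mRNA (SD, n = 6 each), and SSF1. SSF1, a large-subunit factor with 30.2 ± 2.36 TPM in footprints and 52.3 ± 3.95 TPM in mRNA (SD, n = 6 each), has a near-identical copy, SSF2, so its values are uncertain. BRX1 was the highest of the other large-subunit factors, at 222 TPM in footprints and 219 TPM in mRNA, and UTP20 the lowest of the other small-subunit factors, at 32.2 TPM in footprints and 23.5 TPM in mRNA. Along the whole order neighbours were mostly not separated: in 54 of the 58 adjacent pairs the footprint levels of the 6 libraries overlapped. Across the 59 genes the log2 footprint and mRNA levels correlated with a Pearson r of 0.89, against 0.94 across the 3700 genes with a mean of at least 100 reads in both assays. These r are descriptions over genes that share libraries, lengths and depth.

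Subunits of 1 complex lay close together in most preparations. In the 6 standard footprint libraries the mean levels of the 3 box H/ACA proteins measured, CBF5 (the pseudouridine synthase, dyskerin in humans), NHP2 and GAR1, differed by 1.12-fold from lowest to highest, and in mRNA by 1.18-fold. NHP2 averaged 509.8 TPM and GAR1 460.2 TPM in footprints, against 502 TPM and 433 TPM in mRNA. The 6 UtpA subunits differed by 1.52-fold in footprints, from 45.2 TPM for UTP10 to 68.5 TPM for UTP8, and by 1.64-fold in mRNA. The 5 UtpB subunits differed by 1.49-fold in footprints, from 41.8 TPM for UTP6 to 62.3 TPM for UTP13, and by 1.44-fold in mRNA. The box C/D proteins differed more, by 2.16-fold in footprints and 1.83-fold in mRNA, with NOP1 highest and NOP58 lowest. The 4 low footprint libraries showed ranges of 1.23-fold for H/ACA, 1.39-fold for UtpA, 1.51-fold for UtpB and 2.56-fold for C/D.

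In DualLigation libraries the subunits of the same complexes lay far apart. The range was 6.77-fold for H/ACA, 11.8-fold for UtpA, 5.45-fold for UtpB and 10.01-fold for C/D. Within UtpA, UTP5 averaged 258 TPM and UTP8 21.97 TPM in DualLigation, whereas UTP5 averaged 61.5 TPM and UTP8 68.5 TPM in the other 3 standard preparations. Within box C/D, NOP58 was the highest gene in DualLigation at 1501 TPM and NOP56 the lowest at 150.0 TPM. No test was made of these ranges.

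**Figure D2:**
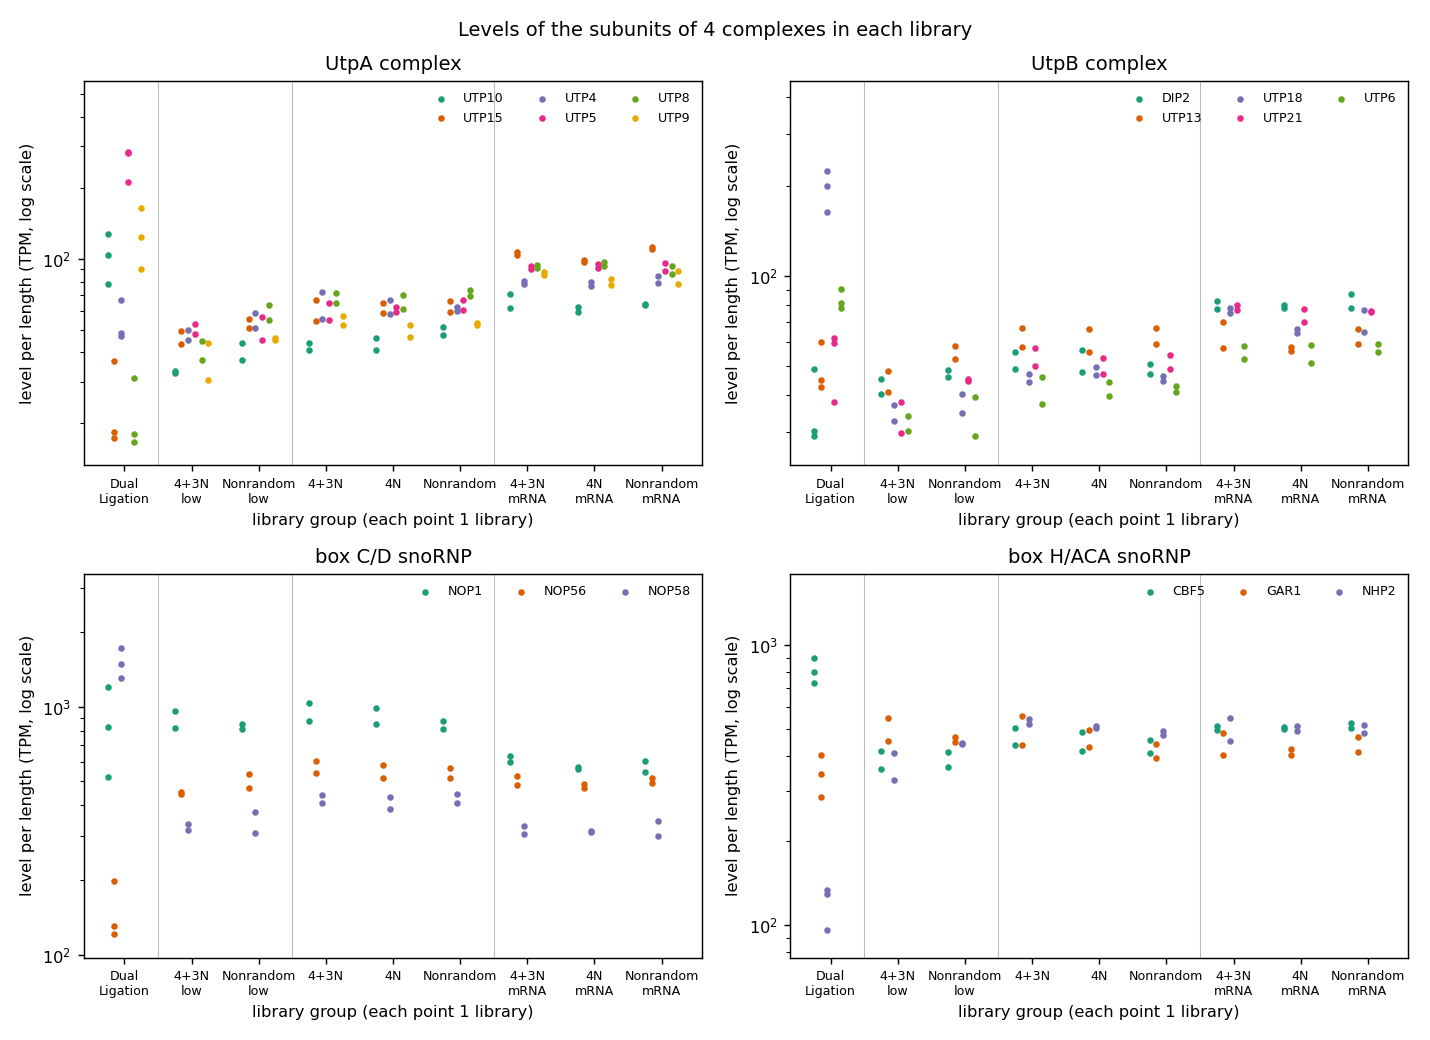
Levels per length in TPM (log scale) of the subunits of 4 complexes, 1 point per library and 1 colour per gene, with DualLigation footprints first, then low footprints, standard footprints and mRNA. The subunits of UtpA span 11.8-fold in DualLigation and 1.52-fold in the other standard footprint libraries.

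Together the 59 genes took 1.45 ± 0.0842% of all reads in the 6 standard footprint libraries of 4+3N, 4N and Nonrandom (SD, n = 6) and 1.28 ± 0.0237% in the 6 mRNA libraries (SD, n = 6). The footprint shares ran from 1.35% to 1.57% and the mRNA shares from 1.24% to 1.31%, so the assays did not overlap. The low libraries gave 1.36 ± 0.0545% (SD, n = 4) and DualLigation 1.57 ± 0.157% (SD, n = 3). These cultures were sequenced in bulk, where a change in the number of cells expressing a gene and a change in RNA per cell cannot be told apart.

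Most ribosome biogenesis factors had more footprints relative to their mRNA than the typical gene. The ratio of footprints to mRNA, a measure of how many ribosomes a given amount of mRNA carries, was taken as the mean over the 4+3N, 4N and Nonrandom preparations after TMM scaling. By edgeR's quasi-likelihood test with adjusted p under 0.05, 43 of the 59 rose, 5 fell and 11 did not pass. Over all 5523 genes tested, 40.2% were higher in footprints and 44.5% were lower, 84.7% in all. The median log2 ratio of the 59 was 0.63, against -0.04 over all genes and 0.10 over the 3700 better counted ones, and 51 of the 59 lay above the median of all genes. Of the 48 that passed, 42 had no overlap between the 6 footprint and the 6 mRNA libraries. Overlap was not counted over all genes, so this number has no share to be set against. A log2 ratio is relative to TMM scaling: with library totals in its place all genes shifted by -0.55, the median of the 59 became 0.08 and that of all genes -0.59, and 25 of the 59 were then higher and 23 lower, beside 17.3% and 69.8% of all genes.

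**Figure D3:**
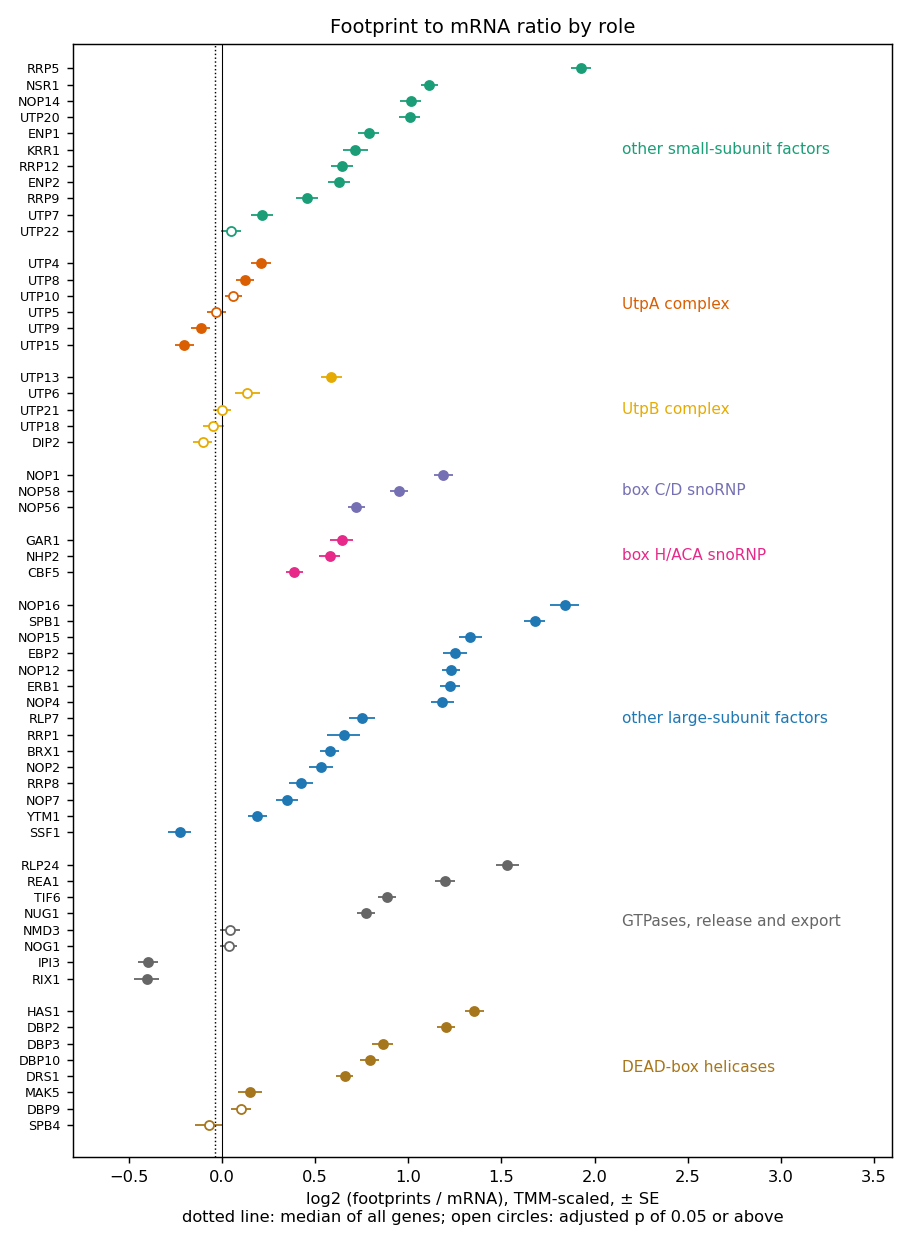
The log2 ratio of footprints to mRNA for each of the 59 genes by role, with its standard error, from 6 footprint and 6 mRNA libraries; filled circles passed the test, and the dotted line is the median of all genes at -0.04. RRP5 is highest at 1.93 and RIX1 lowest at -0.41, and 4 of the 5 UtpB subunits did not pass.

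Among the small-subunit factors outside UtpA and UtpB, 10 of 11 rose and none fell, with a median log2 ratio of 0.72, though with library totals 6 were higher, UTP7 and UTP22 were lower, and RRP9, ENP2 and RRP12 had no call. RRP5 (YMR229C), an RNA-binding protein needed for both subunits (chromosome XIII, 725934 to 731123 on R64), had 1096 to 1169 scaled CPM (reads relative to the TMM-scaled library total) in the 6 footprint libraries with a median of 1158, against 265 to 323 in the 6 mRNA libraries with a median of 307. Every footprint library was above every mRNA library, and its log2 ratio of 1.93 ± 0.053 (SE; edgeR adjusted p 1.61e-16) was the highest of the 59, at the 99.1 percentile of all genes. NSR1 had 857 to 954 in footprints with a median of 897, against 390.2 to 469 in mRNA with a median of 415. Its groups did not overlap either, and its log2 ratio was 1.11 ± 0.047 (SE). NOP14 and UTP20, processome components, had log2 ratios of 1.01 each. ENP1, KRR1, RRP12, ENP2, RRP9 and UTP7 rose with log2 ratios of 0.79, 0.72, 0.64, 0.63, 0.46 and 0.22. UTP22, a further processome factor, had 0.05 and did not pass.

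UtpA and UtpB, which bind the nascent pre-ribosomal RNA early, were counted apart from that group. Of the 6 UtpA subunits 2 rose, 2 fell and 2 did not pass, with a median log2 ratio of 0.01, and of the 5 UtpB subunits 1 rose and 4 did not pass, with a median near 0. UTP15 had 109 to 125 scaled CPM in footprints with a median of 119, against 127 to 146 in mRNA with a median of 135. The groups did not overlap, and UTP15 fell, with a log2 ratio of -0.20 ± 0.053 (SE; edgeR adjusted p 0.00152). UTP9 also fell, by 0.12 on the log2 scale, though its libraries overlapped and its edgeR adjusted p was 0.0466. UTP4 and UTP8 rose with log2 ratios of 0.21 and 0.12, with overlapping libraries. UTP13 was the UtpB subunit that rose, at 0.59, without overlap. The others, which did not pass, had log2 ratios of 0.06 for UTP10, -0.03 for UTP5, 0.14 for UTP6, -0.05 for UTP18 and -0.10 for DIP2, and that of UTP21 was near 0. With library totals all 6 UtpA subunits and 4 of the 5 UtpB subunits were lower, at -0.34 for UTP4 to -0.75 for UTP15, and UTP13 had 0.04 and no call. Whether the ratios of these complexes differ from those of the other factors was not tested.

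All 6 snoRNP proteins rose, though with library totals the 3 box C/D proteins alone were still higher, NHP2 and GAR1 had no call and CBF5 was lower. NOP1 had 1006 to 1238 scaled CPM in footprints with a median of 1101, against 456 to 512 in mRNA with a median of 494. Its footprint libraries were all above its mRNA libraries, and the log2 ratio was 1.19 ± 0.049 (SE; edgeR adjusted p 3.71e-14). NOP58 and NOP56, the paired scaffold proteins of box C/D snoRNPs, had log2 ratios of 0.95 and 0.72. In the H/ACA snoRNP the log2 ratios were 0.64 for GAR1, 0.58 for NHP2 and 0.39 for CBF5. CBF5 had 752 to 894 in footprints and 595 to 657 in mRNA, with no overlap. With library totals its log2 ratio was -0.16.

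Among the other large-subunit factors 14 of 15 rose and 1 fell, with a median log2 ratio of 0.75, though with library totals 8 were higher, SSF1, YTM1 and NOP7 were lower, and RRP8, NOP2, BRX1 and RRP1 had no call. NOP16 (YER002W), a pre-60S factor (chromosome V, 156803 to 157498), had 122 to 165 scaled CPM in footprints with a median of 135, against 31.7 to 47.8 in mRNA with a median of 37.5. The groups lay far apart, with a log2 ratio of 1.84 ± 0.078 (SE; edgeR adjusted p 5.78e-14), at the 98.9 percentile of all genes. SPB1, a methyltransferase that modifies the large-subunit RNA (chromosome III, 31449 to 33974), had 224 to 280.0 in footprints with a median of 249.8, against 72.8 to 87.0 in mRNA with a median of 77.0. SPB1 had a log2 ratio of 1.68 ± 0.057 (SE), again with no overlap. NOP15, EBP2 and NOP12, which join early pre-60S particles, had log2 ratios of 1.33, 1.25 and 1.23. ERB1, NOP4, RLP7, RRP1, BRX1, NOP2, RRP8, NOP7 and YTM1 rose with log2 ratios of 1.22, 1.18, 0.75, 0.65, 0.58, 0.53, 0.42, 0.35 and 0.19. The factor that fell was SSF1, with -0.23 and overlapping libraries.

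The GTPases and the factors of late maturation and export were a mixed group, with 4 of 8 that rose, 2 that fell and 2 that did not pass, and with library totals the same 4 were higher and the other 4 lower. RLP24, a placeholder for a ribosomal protein on the pre-60S particle, had 163 to 188 scaled CPM in footprints with a median of 178, against 56.5 to 67.3 in mRNA with a median of 60.4. Its log2 ratio was 1.53 ± 0.060 (SE; edgeR adjusted p 1.79e-14), without overlap. REA1 had a log2 ratio of 1.20, and TIF6, which keeps the subunits from joining early, 0.89, and the GTPase NUG1 0.77. RIX1 and IPI3, subunits of the complex that recruits Rea1 to the pre-60S particle, were the lowest of all 59.

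RIX1 (YHR197W) had 84.8 to 92.0 scaled CPM in footprints with a median of 89.4, against 99.8 to 138 in mRNA with a median of 118. Its footprint libraries were all below its mRNA libraries, and its log2 ratio was -0.41 ± 0.066 (SE; edgeR adjusted p 1.36e-05). IPI3 had 85.5 to 92.0 in footprints and 111 to 126 in mRNA, with a log2 ratio of -0.40 and no overlap. RIX1 and UTP9, both among the 5 that fell, are the only pair of the 59 that are direct neighbours on a chromosome: they lie on chromosome VIII, at 493896 to 496187 and 491931 to 493658, with 237 bases between them. NMD3, the export adaptor, and the GTPase NOG1 did not pass, with log2 ratios of 0.04 and 0.03; with library totals that of NMD3 was -0.51.

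Of the 8 DEAD-box helicases, which unwind RNA in the pre-ribosome, 6 rose and none fell, with a median log2 ratio of 0.72, though with library totals 4 were higher, SPB4, DBP9 and MAK5 were lower and DRS1 had no call. HAS1, which acts on both subunits, had 433 to 474 scaled CPM in footprints with a median of 448, against 163 to 188 in mRNA with a median of 176. The groups did not overlap, and the log2 ratio was 1.35 ± 0.051 (SE; edgeR adjusted p 8.59e-15). DBP2 had 624 to 724 in footprints and 278 to 309 in mRNA, with no overlap and a log2 ratio of 1.20. The DBP2 gene length includes an intron, which lowers its level per length. The ratio does not use the length, but whether reads in the intron were counted is not known. DBP3, DBP10, DRS1 and MAK5 rose with log2 ratios of 0.86, 0.79, 0.66 and 0.15. SPB4 and DBP9 did not pass, with log2 ratios of -0.07 and 0.10. On whole gene spans the helicases spread 8.87-fold in footprint level per length, from SPB4 to HAS1, and 3.31-fold in mRNA. DBP2 had more reads than HAS1 in both assays, and its level per coding length was not computed. HAS1 may therefore not be the highest helicase per coding length, and the spreads may be larger.

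Lists of related genes outside the 59 were counted in the same fit. Of 85 other biogenesis factors, 67 rose and 7 fell, with a median log2 ratio of 0.54. All 7 RNA polymerase I genes examined rose, with a median of 0.87, and of 7 regulators of these genes 6 rose and none fell, with a median of 0.16. Of 137 cytosolic ribosomal protein genes, whose paralogs share reads in many cases, 91 rose and 27 fell, with a median of 0.47. Beside these counts, 40.2% of all genes were higher and 44.5% lower. The directions are relative to TMM scaling, and these lists were not counted with library totals. That scaling shifted all genes by -0.55, which exceeds in size the medians of 0.54, 0.47 and 0.16.

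Across the 59 the ratio had a Spearman rho of 0.09 with mRNA level, and across the 3700 better counted genes rho was 0.44. With footprint level rho was 0.59 across the 59 and 0.73 across those genes. As 55 of the 59 lay above the median gene in mRNA, the 59 and all those genes cover unlike ranges of level. With gene length rho was -0.16 across the 59 and -0.25 across those genes. The median length was 1722 bases for the 59 and 1221 for all genes. These are descriptions over genes that share 12 libraries, and the ratio shares counts with both the mRNA level and the footprint level.

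The ratio gave similar counts for each preparation taken by itself. These are contrasts within the same fit of 12 libraries, so they share its scaling and its estimate of the spread. In 4+3N 40 of the 59 rose and 2 fell, beside 34.9% and 39% of all genes, or 73.8% in either direction. In 4N 39 rose and 2 fell, beside 35.3% and 39.1%, or 74.4%. In Nonrandom 41 rose and 5 fell, beside 34.9% and 38.7%, or 73.6%. The difference of the log2 ratio between 4+3N and Nonrandom passed for none of the 59 by edgeR or DESeq2, beside 0.0543% of all genes called by edgeR. At the looser unadjusted p under 0.05 there was 1 of the 59, with no share of all genes beside it. That 1 was DRS1, a DEAD-box helicase, with a difference of 0.34 ± 0.12 (SE; edgeR adjusted p 0.977). Its scaled footprint CPM were 249 and 254 in 4+3N and 218 and 221 in Nonrandom, and its mRNA values were 137 and 139 in 4+3N and 162 and 143 in Nonrandom.

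The choice of randomized or fixed oligonucleotides gave small differences in the footprints of these genes. In footprints of 4+3N against Nonrandom, none of the 59 passed by edgeR or DESeq2, while edgeR called 0.266% of all genes higher and 0.038% lower. At the looser unadjusted p under 0.05 there were 8 of the 59, a number with no share of all genes beside it. The median log2 change was 0.08, and the changes ran from -0.19 for UTP10 to 0.31 for NOP16. GAR1 had 292 and 346 scaled CPM in 4+3N libraries, against 253 and 271 in Nonrandom libraries. The groups did not overlap, but the log2 change of 0.28 ± 0.089 (SE) had an edgeR adjusted p of 0.441. DRS1 had 206 and 210.0 in 4+3N, against 181 and 183 in Nonrandom, with a log2 change of 0.20 and an edgeR adjusted p of 0.444.

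Because libraries with the same replicate number deviated together, the same comparison was also fitted with the replicate number as a block. Then 13 of the 59 rose and 1 fell, beside 5.57% and 3.74% of all genes. GAR1 rose by 0.28 ± 0.045 on the log2 scale (SE; edgeR adjusted p 0.000332), and NOP16 by 0.30, SPB1, NOP1 and DRS1 by 0.20 each. NOP2, NOP15, NOP4, NHP2, RLP7, EBP2, CBF5 and DBP2 rose by 0.14 to 0.19. UTP10, a UtpA subunit, fell by 0.19, with 233 and 235 scaled CPM in 4+3N libraries and 263 and 272 in Nonrandom libraries.

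The other footprint comparisons of these preparations gave no calls among the 59, with or without the block. In 4N against Nonrandom 1 of the 59 had an unadjusted p under 0.05, UTP10 at -0.16. Of all genes 0.133% were called, at the stricter adjusted p. In 4+3N against 4N none had an unadjusted p under 0.05, and 0.114% of all genes were called at the stricter adjusted p. The smallest p were those of UTP9, with a log2 change of 0.15, and NOP15, with 0.13. The comparisons share libraries, so they are not independent.

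The mRNA comparisons between preparations gave no calls among these genes. None of the 59 passed by edgeR or DESeq2 in any pair. Of all genes, edgeR called 0.222% with 4+3N over Nonrandom, 0.185% with 4N over Nonrandom and 0% with 4+3N over 4N. At the looser unadjusted p under 0.05 there were 1, none and 2 of the 59, in that order, with no share of all genes beside them. The largest change was that of RRP1, a large-subunit processing factor, whose scaled mRNA CPM were 95.9 and 96.2 in 4+3N, 77.4 and 78.5 in 4N and 69.4 and 85.7 in Nonrandom. Its log2 change was 0.29 ± 0.13 (SE; edgeR adjusted p 1) over Nonrandom and 0.30 ± 0.13 over 4N. The 4+3N libraries were the highest for RRP1, but the change did not pass. DRS1 had 166 and 168 in 4+3N, against 197 and 188 in 4N, with a log2 change of -0.21. ENP1 in 4+3N over Nonrandom had 0.21, and NSR1 and UTP15 in 4N over Nonrandom had 0.16 and -0.17.

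Low and standard footprint libraries differed past the test for 1 of these genes. Taken as the mean over 4+3N and Nonrandom, 1 of the 59, GAR1, rose in low libraries and none fell, beside 1.82% and 0.618% of all genes, or 2.44% in either direction. GAR1 had 374 and 416 scaled CPM in 4+3N low and 326 and 321 in Nonrandom low, against 283 and 336 in 4+3N and 246 and 264 in Nonrandom. Within each preparation the low libraries were higher, but over both preparations the groups overlapped. The log2 change was 0.35 ± 0.068 (SE; edgeR adjusted p 0.00658), and it no longer passed without 4+3N low replicate 2, where the edgeR adjusted p was 0.105, or with library totals, where it was 0.0587. With library totals 2 of the 59 fell and none rose, beside 2.86% and 1.14% of all genes, so that the share that fell was near that of all genes. In each preparation alone none passed by edgeR. Of all genes, 0.657% were called higher, 0.0773% lower and 0.734% in all for 4+3N, and 1.01%, 0.445% and 1.45% for Nonrandom. At the looser unadjusted p under 0.05 there were 6 of the 59 in each, with no share of all genes beside them. With the replicate number as a block GAR1 and NOP1 rose and UTP8 fell in 4+3N alone, beside 2.61% of all genes called, and GAR1 rose in Nonrandom alone, beside 3.83%.

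With the same block over both preparations, 3 of the 59 rose in low libraries and 2 fell, beside 4.66% and 2.61% of all genes. GAR1 rose by 0.34, NOP1 by 0.21 and NMD3 by 0.19, and NOP14 and UTP8 fell by 0.22 and 0.23 on the log2 scale. NOP1 had 1081 and 1159 scaled CPM in 4+3N low and 934 and 921 in Nonrandom low, against 898 and 994 in 4+3N and 808 and 833 in Nonrandom. The low libraries of NOP1 were higher than the standard ones within each preparation, and they overlapped across preparations. The difference between the preparations in the low against standard change passed for none of the 59 by edgeR or DESeq2. Of all genes, edgeR called 0.0193% higher, 0.213% lower and 0.232% in all. At the looser unadjusted p under 0.05 there were 2 of the 59, SPB4 and EBP2, with no share of all genes beside them.

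Calls in DualLigation went in both directions and were about as frequent among these genes as among all genes. Against the mean of 4+3N, 4N and Nonrandom, 29 of the 59 rose and 12 fell by edgeR, beside 33.1% and 32.6% of all genes, or 65.7% in either direction. The fit shared its estimate of the spread over 4 groups, with a common biological coefficient of variation of 21.2%, below the 35.5% of DualLigation alone. Standard errors and p-values of this comparison may therefore be too small. All 6 UtpA subunits among the 59 changed, 4 up and 2 down, and of the 15 other large-subunit factors 8 rose and 2 fell. The median log2 change was 0.32, against -0.05 over all genes. This split depends on the scaling: with library totals all genes shifted by -0.67, and 16 of the 59 rose and 30 fell, beside 17.3% and 55.1% of all genes. The 8 genes with the largest rise and the 8 with the largest fall, chosen among those that passed without overlap, kept their direction and their call with library totals.

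NMD3 (YHR170W) had 870.3, 1355 and 1363 scaled CPM in the 3 DualLigation libraries, against 150.2 to 162 with a median of 156 in the 6 other standard libraries. Every DualLigation library was above every other library, and the log2 change was 2.94 ± 0.15 (SE; edgeR adjusted p 3.52e-06). UTP18, a UtpB subunit, had 341, 485 and 535 in DualLigation, against 68.0 to 77.1 with a median of 73.4 in the others, a log2 change of 2.64 ± 0.14 (SE). UTP5, a UtpA subunit, had 639, 551 and 719 in DualLigation, against 97.7 to 110.1 with a median of 104 in the others, a log2 change of 2.61 ± 0.11 (SE). For both, the groups did not overlap. UTP9, UTP10, ENP1 and UTP6, all of the small-subunit pathway, rose by 1.83, 1.74, 1.61 and 1.54 on the log2 scale.

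Some partners in the same particle went opposite ways, though of the 5 UtpB subunits 3 rose and none fell. With 33.1% of all genes higher and 32.6% lower, opposite calls were also common among genes at large. NOP58 had 2338, 3083 and 3494 scaled CPM in DualLigation, against 542 to 578 with a median of 569.7 in the others, and rose by 2.39 ± 0.13 on the log2 scale (SE; edgeR adjusted p 4.56e-06). NOP56 had 349, 268 and 245 in DualLigation, against 696 to 783 with a median of 739.8 in the others, and fell by 1.36 on the log2 scale. Neither gene's groups overlapped. NHP2 had 73.5, 82.2 and 59.9 in DualLigation, against 192 to 226 with a median of 213 in the others, and fell by 1.56 on the log2 scale. CBF5 had 1351, 1439 and 1728 in DualLigation, against 533 to 632 with a median of 576 in the others, and rose by 1.38 on the log2 scale. Both were separated from the other libraries. GAR1, with 292, 239.7 and 283 in DualLigation against 217 to 296 with a median of 247 in the others, overlapped and did not pass.

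UTP8, a UtpA subunit like UTP5, had 78.1, 48.2 and 51.1 in DualLigation, against 119.8 to 135 with a median of 130.3 in the others, and fell by 1.13 on the log2 scale (edgeR adjusted p 0.000467). RLP24, UTP15, NOP15, UTP7 and HAS1 fell by 1.00, 0.85, 0.82, 0.77 and 0.75 on the log2 scale. Many other genes fell as much: these changes lay between the 18.2 (RLP24) and 24.9 (HAS1) percentiles of all genes. Among the rises above, UTP6 lay at the 88.9 and NMD3 at the 97.2 percentile. For UTP8 and each of these 5 genes that fell, every DualLigation library was below every other library, which the choice of named genes required. Smaller rises, of 1.06 to 1.41 on the log2 scale, were those of NSR1, KRR1, MAK5, NOP2, DRS1, REA1, EBP2, SSF1 and NOP14. NOP1 had 1372, 1103 and 677 in DualLigation, against 713 to 875 with a median of 778 in the others, so that its libraries overlapped and it did not pass, with a log2 change of 0.42 ± 0.20 (SE).

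**Figure D4:**
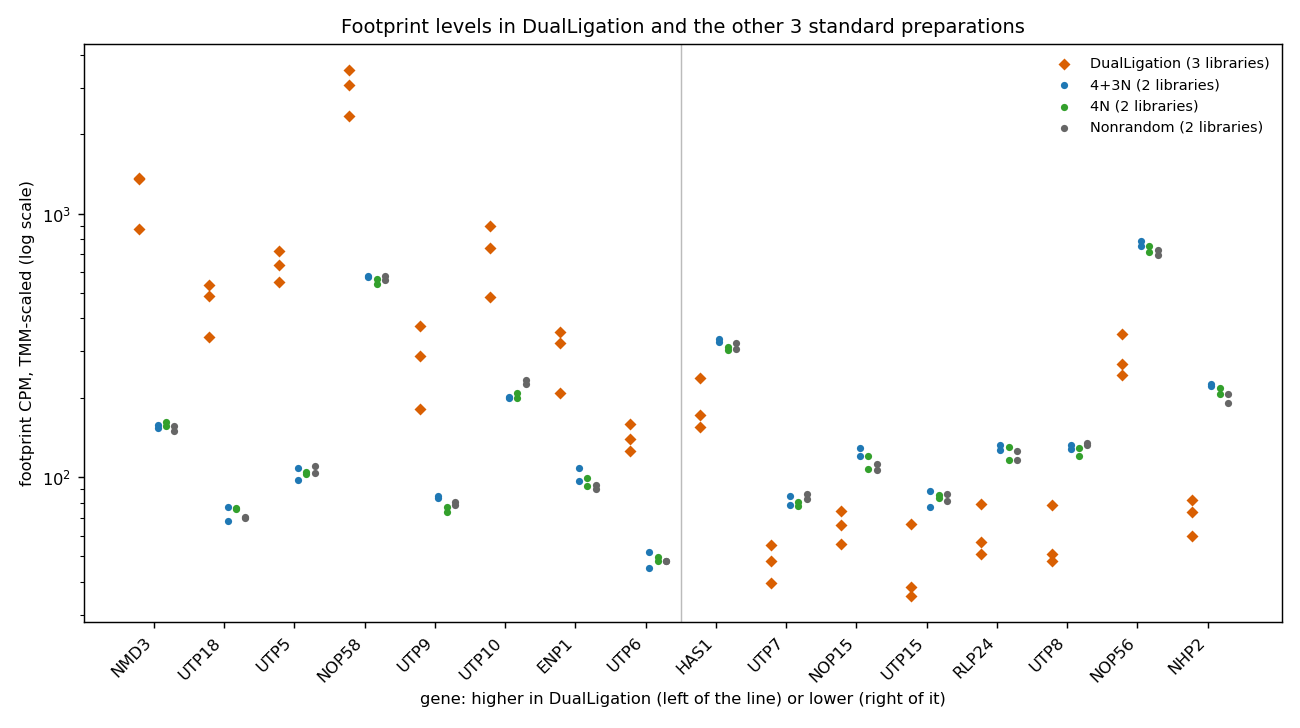
TMM-scaled footprint CPM (log scale), 1 point per library, DualLigation left of 4+3N, 4N and Nonrandom. Shown are the 8 genes with the largest rise and the 8 with the largest fall in DualLigation, among those that passed. Only genes whose groups do not overlap were eligible, so the separation of these 16 is a condition of their choice. NMD3 lies at 870.3 to 1363 in DualLigation and at 150.2 to 162 in the others.

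**Figure D5:**
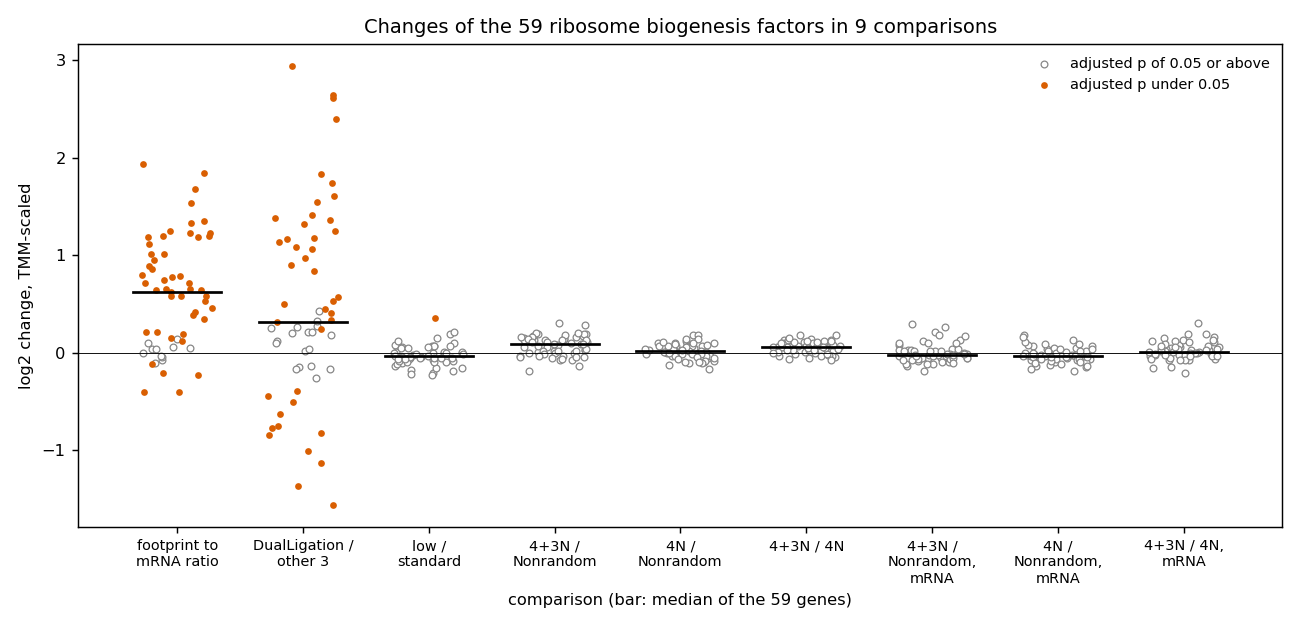
Log2 changes of the 59 genes in 9 comparisons, 1 point per gene, with the median as a bar. Filled points passed the test: 48 in the footprint to mRNA ratio, 41 in DualLigation against the other 3 standard preparations, 1 in low against standard and none in the 6 comparisons between 4+3N, 4N and Nonrandom.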

How the data were processed

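Ribosome profiling (13 libraries) and mRNA-seq (6 libraries) were analysed, grouped by the sample titles. The authors deposited whole-number read counts per gene. The submitters' processing notes name CASAVA 1.8, Bowtie 1.0.0 and the genome sacCer3. The rule for counting, its use of strand and its treatment of multiply aligned reads are not given in the sources used here. Genes without a listed count were set to 0. The deposited counts of Nonrandom footprint replicate 1 list 5559 genes a second time. Its second list (total 11656814; Pearson r with replicate 2 of 0.998) entered every fit, not the first (total 3520161; r of 0.646). Of 5758 identifiers 5754 matched the RefSeq R64 gene table, which gave symbols, coordinates and gene lengths (whole spans, introns included). Sequences were not used here.

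Counts were filtered (filterByExpr), scaled by TMM and tested with edgeR 4.0.16 under R 4.3.3 (quasi-likelihood, two-sided), with Benjamini-Hochberg adjustment over all genes tested and a threshold of 0.05. One fit of 12 libraries gave the ratio, and fits of 6, 9, 8 and 6 libraries gave the footprint preparations, DualLigation, low and mRNA comparisons. The standard error is the absolute log2 change over the square root of F. Shares of all genes called are at adjusted p under 0.05, and counts at an unadjusted p under 0.05 have no share of all genes beside them. TMM-scaled CPM values come from the fit of the same comparison. Levels in TPM divide counts by gene length. The tests were checked on simulated data, drawn as independent libraries with the same spread in every group. That check therefore covers neither the pairing by replicate number nor the wider spread of DualLigation. Intervals were not needed: the lowest count of any of the 59 was 29.

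The 59 genes, the other gene lists and the comparisons were chosen with earlier results of these data known. Named genes were, per comparison, up to 8 with the largest rise and fall among those that passed without overlap of libraries (otherwise the 2 with the smallest p), the highest and lowest level per role, the 3 highest and 3 lowest ratios, and NOP1, NOP56, NOP58, CBF5, NSR1, MDN1, DBP2, SSF1, TIF6 and NMD3. Others were named after their values were seen.

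Same-numbered libraries deviated together, over 1125 genes with at least 100 reads in every library: the correlations of the deviations were 0.677 to 0.866 among the standard 4+3N, 4N and Nonrandom footprints, 0.226 to 0.558 over the pairs with a low group and 0.296 to 0.636 among mRNA libraries. The numbers come from the titles, and a block on them was fitted. Footprints and mRNA shared no such pairing in all pairs (5 of 9 above 0.1), nor did DualLigation with the others (0 of 3). One 4+3N footprint library titled replicate 2 carries number 1 among its other labels; the title was followed. Alternatives were DESeq2 1.42.0, its size factors, no filter, leaving out each replicate, leaving out genes with near-identical copies (by name), the first count list, limma 3.58.1 voom with a variance weight per group, and thinning. Library totals in place of TMM, the first list in the DualLigation comparison and each preparation alone for low were added after seeing the data.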

Additional observations from a re-analysis of the deposited data

Results flagged for a closer look

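The first count list of Nonrandom footprint replicate 1, which no comparison uses, put 2.35% of its reads in the 59 genes, against 1.37% in the second list of the same library and 1.35% to 1.57% in the 6 standard footprint libraries of 4+3N, 4N and Nonrandom. The value was singled out as a signal in data outside the main measurement. For no gene was the first list above the second. The first list held a median of 97.0% of the second for genes under 100 reads and 10.7% for genes over 10000 reads.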

How the results depend on the processing

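Counts below are of the 59 genes that passed. Shares of all genes under the same settings are not set beside them, so they show only how the number of calls moved. The ratio gave 48, and 41 to 51 over all alternatives, 45 to 49 without each library in turn. DualLigation gave 41, and 32 (22 rose, 10 fell, limma voom) to 46, or 35 to 45 without each library in turn. The 6 comparisons between 4+3N, 4N and Nonrandom gave 0 under every alternative, except that the replicate block gave 14 for footprints of 4+3N against Nonrandom. Low against standard gave 1: 2 with library totals, 2 with DESeq2 (GAR1 and NOP1), 5 with the replicate block, 0 with the first count list, 0 in Nonrandom alone, 0 in 4+3N alone, and 0 to 2 without each library in turn (0 without 4+3N low replicate 2 and 2 without 4+3N replicate 2). In low against standard of 4+3N alone and Nonrandom alone the block gave 3 and 1 in place of 0. It moved no other count of calls by over 1.5 times; footprints and mRNA, and DualLigation and the others, were not paired by it (51 and 44 calls). With library totals the log2 ratio of CBF5 was -0.16 and that of NMD3 -0.51. With the first count list CBF5 had 0.26 and an edgeR adjusted p of 0.231. UTP15 and SSF1 did not pass in 4N alone or 4+3N alone. The share of reads was 2.20% in footprints and 1.86% in mRNA without ribosomal protein genes and the 10 genes with most reads, and 1.61% in footprints with the first list; without each library in turn it was 1.42% to 1.47% in footprints and 1.27% to 1.29% in mRNA. Where no construction shows it, the cause was not tested. Near-identical copies were marked by name, not by protein identity. The low libraries, at 827353 to 2667016 reads, limit the low comparison, and with 2 libraries a group small changes may go undetected.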

Other observations

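The titles number the replicates, and a difference between the numbers was also computed, after the data had been seen. In the 6 standard footprint libraries of 4+3N, 4N and Nonrandom, 23 of the 59 genes were higher in replicate 2 than in replicate 1 and none was lower by edgeR, beside 8.23% and 10.7% of all genes, and 52 of the 59 had a positive log2 difference, with a median of 0.09. RRP1 had 0.36, NOP2 0.24, RLP7 0.23, NOP7 and EBP2 0.22 each. Same-numbered libraries of these groups deviated together, with correlations of 0.677 to 0.866, so the preparations may not be independent samples. The test treated them as independent, so its calls do not measure the spread between samples. In the low libraries none passed, beside 0.125% and 0.687% of all genes, and 42 were positive. In mRNA none passed, beside 0.203% and 0.739%, and 29 were positive. The 59 genes took a larger share of the reads in replicate 2 than in replicate 1 in the 5 footprint groups other than DualLigation, with 1.57% and 1.40% in 4+3N, 1.51% and 1.35% in 4N, 1.48% and 1.37% in Nonrandom, 1.39% and 1.33% in 4+3N low, and 1.43% and 1.31% in Nonrandom low. These 5 groups are likewise not independent, as their same-numbered libraries deviated together. The larger share did not hold elsewhere: DualLigation had 1.47% in replicate 2, 1.75% in replicate 1 and 1.48% in replicate 3. The mRNA shares were 1.30% and 1.31% in 4+3N, 1.24% and 1.28% in 4N and 1.29% and 1.27% in Nonrandom.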
